A study of Mus musculus with 12 samples.

Results

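The 10 genes described here are the Toll-like receptor genes Tlr1, Tlr2, Tlr3, Tlr4, Tlr5, Tlr6, Tlr7, Tlr8, Tlr9 and Tlr13, taken by symbol from a count table of 55573 mouse genes. They fall into 5 receptors of the cell surface (Tlr1, Tlr2, Tlr4, Tlr5 and Tlr6) and 5 of the endosome (Tlr3, Tlr7, Tlr8, Tlr9 and Tlr13). RNA was sequenced from bone marrow-derived macrophages (MΦs) and from macrophages co-cultured with murine myeloma cells (MM-MΦs) of wt and BMI1-KO mice on a C57BL/6 background, with 3 libraries in each of 4 groups. The wt mice carried BMI1fl/fl alone and the BMI1-KO mice BMI1fl/fl with Mx1-Cre, a Cre whose promoter is switched on by interferon. All mice, controls included, were injected at 6 to 8 weeks of age with 5 doses of poly I:C (15 mg/kg), which induces that interferon and is itself a ligand of the receptor encoded by Tlr3, and marrow was taken 4 weeks after the last dose. Adherent marrow cells received 5 ng/mL of M-CSF over 7 days. MM-MΦs then spent a further 48 h with 5TGM1 myeloma cells, and CD11b+ F4/80+ cells were sorted from both kinds of culture. The sources used here do not state whether MΦs were held for those 48 h too, or whether the 3 libraries of a group came from separate mice, so the p-values below measure the spread between these libraries, which may be technical.

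Toll-like receptors recognise conserved parts of microbes. Those at the cell surface bind lipopeptides, lipopolysaccharide and flagellin, whereas those in endosomes bind RNA or DNA taken up by the cell. Binding recruits the adaptor Myd88 or, for Tlr3, the adaptor Ticam1, and leads through kinases and ubiquitin ligases to NF-kB, which drives inflammatory genes, and to interferon regulatory factors, which drive interferon.

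The 12 libraries held 9662279 to 11142768 counts, and 14197 genes had enough counts to be tested, among them all 10 receptor genes. Tlr11 and Tlr12, the other mouse members of the family, had at most 3 and 6 counts in a library and were not tested. The 9 macrophage markers summed to 13170 to 19860 CPM (counts scaled to library size, the unit used for each gene below) over all libraries, with Adgre1, the gene of F4/80, and Itgam, the gene of CD11b, detected in each, while T and NK cell markers summed to at most 0.828 CPM. Markers of other cells were higher, at 78.2 to 258 CPM (monocyte), 32.3 to 203 CPM (neutrophil) and 26.9 to 405 CPM (B and plasma cell). With loss of Bmi1, 5 of 6 tested neutrophil markers lay above 0 in MM-MΦs and in MΦs, and none passed. Their median log2 fold changes were 1.96 and 2.12, and the part of such RNA in the levels of the receptors was not tested. Bmi1, the targeted gene, had 251 to 364 counts in the wt libraries, and each of the 6 BMI1-KO libraries lists it at 0. The totals behind the deposited FPKM values of the BMI1-KO libraries exceeded their summed counts by 512 to 734 (−2 to 1 in wt), so these zeros were not taken as a check of the labels. Xist had 26906 to 33224 counts in every library and 4 Y-linked genes (Ddx3y, Eif2s3y, Kdm5d and Uty) had none, so by these genes the libraries did not differ in sex (3 members, Tlr7, Tlr8 and Tlr13, are X-linked).

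Levels were compared between genes per kilobase of exon, as FPKM (fragments per kilobase of exon, scaled to the depth of the library). Tlr13, whose product binds a stretch of bacterial ribosomal RNA, had the highest level of the family in each of the 12 libraries, with a mean of 238.7 FPKM (214.5 to 302.1) and a rank between 74 and 119 among all genes. Tlr8 (mean of 90.0 FPKM) and Tlr7 (68.1 FPKM), both receptors of single-stranded RNA, came next, followed by Tlr2 (58.9 FPKM), the shared partner of the lipopeptide receptors. Lower levels were found for Tlr4 (22.0 FPKM), the lipopolysaccharide receptor, Tlr1 (16.8 FPKM) and Tlr6 (6.57 FPKM), the partners of Tlr2, Tlr9 (8.74 FPKM), the receptor of unmethylated CpG DNA, and Tlr3 (4.59 FPKM), the receptor of double-stranded RNA. Tlr5, the flagellin receptor, was near the limit of detection at 0.282 FPKM, and Tlr12 and Tlr11 averaged 0.030 and 0.012 FPKM.

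Of the neighbours in this order, Tlr13 and Tlr8, Tlr2 and Tlr4, and Tlr3 and Tlr5 did not overlap over the 12 libraries. Every other pair of neighbours overlapped, although Tlr1 lay above Tlr9 within each of the 12 libraries. The 5 endosomal receptors made up 74.6% to 83.3% of the summed FPKM of the 10 genes, and Tlr13 alone 38.6% to 54.7%. Both the lowest shares were in wt MM-MΦ replicate 1 and both the highest in BMI1-KO MΦ replicate 2, and the 4 libraries numbered 1 held the lowest share of endosomal receptors in their groups.

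**Figure D1:**
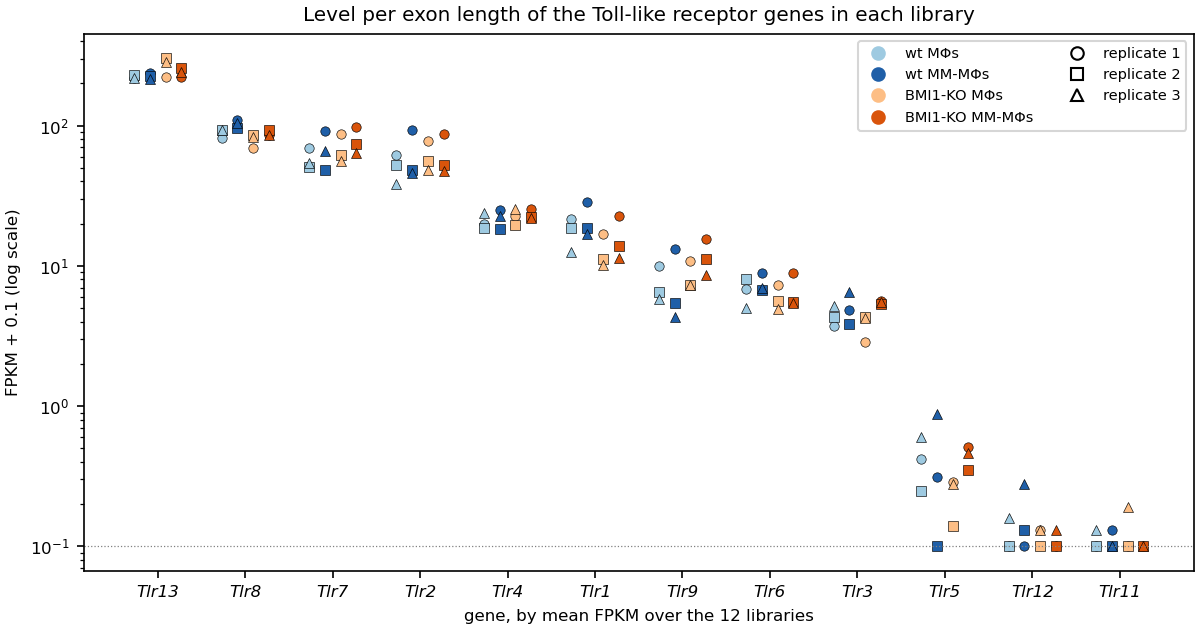
FPKM plus 0.1 on a log axis for each Toll-like receptor gene (x axis, ordered by mean) in each of the 12 libraries, with colours for the 4 groups and symbols for the replicate number; the dotted line marks a value of 0. Tlr13 lies between 214.5 and 302.1 FPKM, above all others, and the groups overlap for most genes.

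In the GRCm38 annotation the surface receptors are Tlr1 (chr5:64924679-64933563), Tlr2 (chr3:83836272-83841767), Tlr4 (chr4:66827584-66930284), Tlr5 (chr1:182954788-182976044) and Tlr6 (chr5:64952031-64960097). The endosomal receptors are Tlr3 (chr8:45395665-45411080), Tlr7 (chrX:167304929-167330558), Tlr8 (chrX:167242696-167264329), Tlr9 (chr9:106222598-106226883) and Tlr13 (chrX:106143204-106160493), of which Tlr7, Tlr8 and Tlr13 are X-linked. Tlr1 and Tlr6 lie 18467 bases apart on chromosome 5 and Tlr8 and Tlr7 lie 40599 bases apart on chromosome X (GRCm38). Tlr1 and Tlr6 are close copies: 454 of the 50-base windows of their exons were identical, which is 13.6% of those of Tlr1 and 12.3% of those of Tlr6, and no other pair of the 10 genes shared such a window. Reads that lie wholly within such windows could come from either gene, and the share of such reads is not known here, so their separate counts are uncertain.

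The promoter windows below reach from 250 bases before to 50 bases after the start site (RefSeq, GRCm38.p6), and 8 of the 10 genes had an entry. Those of Tlr1 (chr5:64933509-64933808, minus strand) and Tlr6 (chr5:64959999-64960298, minus strand) are shown because their levels moved most closely together, those of Tlr2 (chr3:83841559-83841858, minus strand) and Tlr9 (chr9:106222348-106222647, plus strand) because of all members Tlr2 had the largest share of its spread with the replicate number and Tlr9 the largest excess of libraries numbered 1 over those numbered 3, and that of Tlr13 (chrX:106143025-106143324, plus strand) as the most abundant member. Capitals mark matches to GAGGAAG, a core of the sites of PU.1, the leading macrophage transcription factor, or to the NF-kB motif, on either strand.
Tlr1: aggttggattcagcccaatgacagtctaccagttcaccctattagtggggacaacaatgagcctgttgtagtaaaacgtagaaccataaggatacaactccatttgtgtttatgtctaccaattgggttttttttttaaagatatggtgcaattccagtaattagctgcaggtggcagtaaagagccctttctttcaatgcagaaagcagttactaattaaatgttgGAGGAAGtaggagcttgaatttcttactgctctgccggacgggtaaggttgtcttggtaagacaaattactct
Tlr6: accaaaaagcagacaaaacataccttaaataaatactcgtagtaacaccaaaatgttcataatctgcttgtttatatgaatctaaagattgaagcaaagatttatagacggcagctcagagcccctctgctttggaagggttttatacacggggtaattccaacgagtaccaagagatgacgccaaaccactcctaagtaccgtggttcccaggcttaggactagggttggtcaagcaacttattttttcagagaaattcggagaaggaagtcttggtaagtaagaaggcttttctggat
Tlr2: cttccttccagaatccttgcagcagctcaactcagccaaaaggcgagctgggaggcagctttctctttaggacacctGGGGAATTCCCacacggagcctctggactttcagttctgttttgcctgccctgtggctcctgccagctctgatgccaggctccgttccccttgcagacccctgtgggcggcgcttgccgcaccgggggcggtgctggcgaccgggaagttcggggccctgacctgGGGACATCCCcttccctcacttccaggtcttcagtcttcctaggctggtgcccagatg
Tlr9: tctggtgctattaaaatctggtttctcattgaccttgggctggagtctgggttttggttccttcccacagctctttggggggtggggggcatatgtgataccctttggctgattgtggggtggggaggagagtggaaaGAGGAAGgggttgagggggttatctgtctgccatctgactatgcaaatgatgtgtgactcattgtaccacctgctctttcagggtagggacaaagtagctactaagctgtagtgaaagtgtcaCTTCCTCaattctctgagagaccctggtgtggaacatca
Tlr13: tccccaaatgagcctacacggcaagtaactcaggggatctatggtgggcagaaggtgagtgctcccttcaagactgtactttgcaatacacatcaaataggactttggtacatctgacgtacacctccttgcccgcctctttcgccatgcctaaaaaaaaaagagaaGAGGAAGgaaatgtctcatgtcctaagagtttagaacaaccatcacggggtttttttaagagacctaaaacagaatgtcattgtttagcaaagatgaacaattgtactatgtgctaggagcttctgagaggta
The letters GAGGAAG were found in Tlr1, Tlr9 and Tlr13, and in 13.6% of 32851 promoters of the same length. In Tlr9 there was a match on each strand. The NF-kB motif was found in Tlr2, with 3 matches of which 2 overlap, and with 1 match in Tlr3 (window not shown), and in 4.5% of all promoters. The interferon response motif, GAAA followed by any 2 bases and GAAA again, was in none of the 8 windows and in 3.44% of all promoters. The motifs were chosen after the sequences had been seen, and a match describes letters only.

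Co-culture was examined first, since the labels match MΦs and MM-MΦs by number within a genotype. None of the 10 receptor genes passed the test in wt (edgeR quasi-likelihood test, Benjamini-Hochberg adjusted p of 1 for all) or in BMI1-KO (adjusted p = 0.9999 for all), where 0.0916% and 0.190% of all genes tested passed. At an unadjusted p below 0.05 there were 0 members in wt (1.99% of all genes) and 1 in BMI1-KO (2.94%), Tlr3. DESeq2 called 0 of 10 in both. All 10 fold changes lay above 0 in wt, with a median of 0.22 on the log2 scale against 0.00 over all genes, and 9 of 10 in BMI1-KO, with a median of 0.20 against −0.01. The shared direction depended on the libraries fitted. Without wt MM-MΦs replicate 1 it was 4 of 10 above 0 in wt, and without BMI1-KO MM-MΦs replicate 1 it was 5 of 10 in BMI1-KO. Those fits kept the MΦ library numbered 1 of the same genotype. With the replicate number as a block it was 8 of 10 in wt and 9 of 10 in BMI1-KO. Without all libraries numbered 1, tried only once the data had been seen, it was 7 of 10 and 8 of 10. A p that misses the threshold does not show that levels were equal, and the 95% intervals are given with each gene. In bulk RNA of this kind, fewer cells of a type and less RNA per cell cannot be told apart.

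With the replicate number as a block, which took up the large differences between numbers, 0 of 10 members still passed in wt and in BMI1-KO, against 1.10% and 2.17% of all genes. At an unadjusted p below 0.05 the block gave 4 members in wt (Tlr1, Tlr2, Tlr7 and Tlr8) and 4 in BMI1-KO (Tlr1, Tlr3, Tlr7 and Tlr9), against 6.45% and 10.6% of all genes. The lowest adjusted p under the block was 0.0715, for Tlr3 in BMI1-KO.

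**Figure D2:**
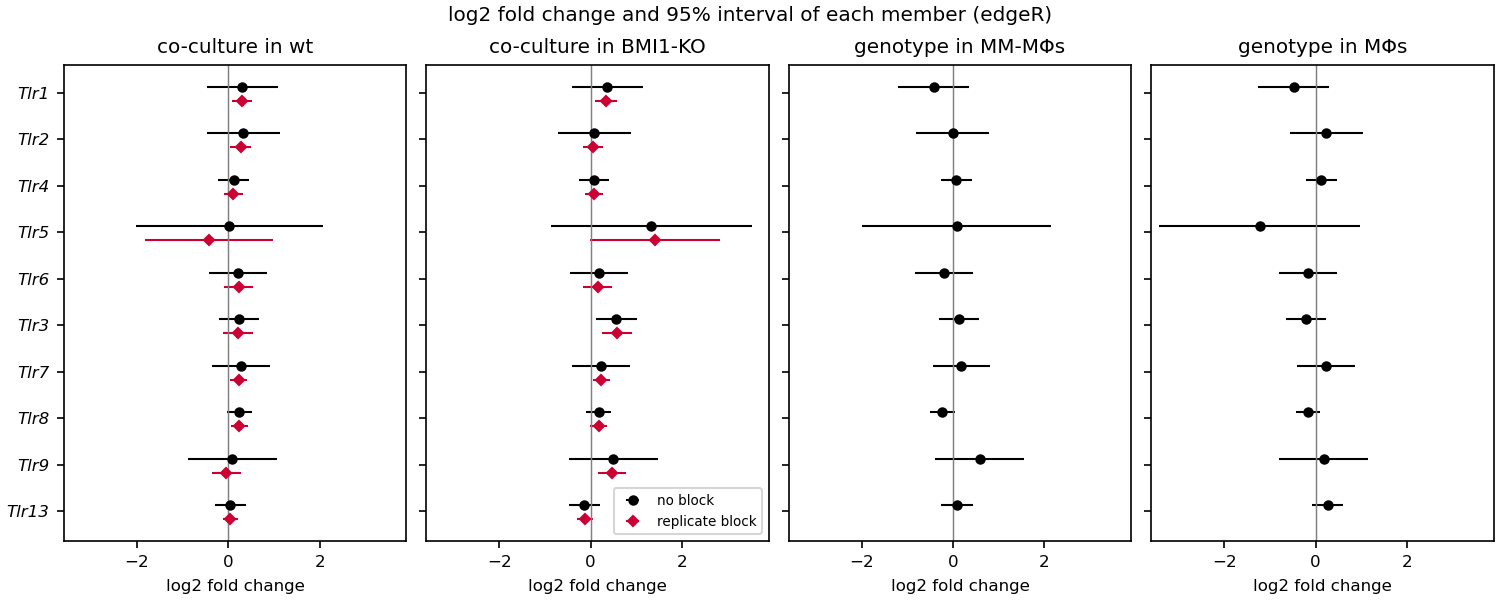
log2 fold change (x axis) with its 95% interval for each of the 10 genes in 4 comparisons, from edgeR without a block (black) and, for co-culture, with the replicate number as a block (red). The black interval of Tlr3 for co-culture in BMI1-KO, 0.12 to 1.01, is the only one that leaves out 0.

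Among the surface receptors, Tlr2 encodes the common chain of the lipopeptide receptors. It stood at 196, 158 and 106 CPM in wt MΦs, replicates 1 to 3, and at 301, 148 and 129 CPM in wt MM-MΦs. In BMI1-KO it was at 233, 170 and 139 CPM in MΦs and at 274, 156 and 143 CPM in MM-MΦs. The groups overlapped, and in each the library numbered 1 was the highest. The log2 fold change with co-culture was 0.33 (95% interval −0.47 to 1.13) in wt and 0.08 (−0.72 to 0.88) in BMI1-KO.

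Tlr1, which pairs with Tlr2 for triacylated lipopeptides, was at 75.5, 62.5 and 38.1 CPM in wt MΦs and 102, 63.0 and 52.3 CPM in wt MM-MΦs. In BMI1-KO it was at 56.1, 37.5 and 32.6 CPM in MΦs and 79.0, 45.9 and 37.6 CPM in MM-MΦs. Each MM-MΦ library lay above the MΦ library of the same number and genotype, by 0.01 to 0.49 on the log2 scale over the 6 pairs. The log2 fold changes were 0.31 (−0.47 to 1.08) in wt and 0.36 (−0.42 to 1.14) in BMI1-KO. With the block they were 0.30 (0.08 to 0.53, adjusted p = 0.393) and 0.34 (0.10 to 0.57, adjusted p = 0.18).

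Tlr6, which pairs with Tlr2 for diacylated lipopeptides, ranged from 16.7 to 35.1 CPM over the 12 libraries. Its fold changes with co-culture were 0.21 (−0.42 to 0.84) in wt and 0.18 (−0.46 to 0.81) in BMI1-KO, and the pair numbered 2 moved down in both genotypes. Tlr4 was the steadiest surface receptor, at 103 to 149 CPM in all libraries. Its fold changes were 0.12 (−0.21 to 0.46) and 0.07 (−0.26 to 0.41), so in neither genotype did the interval reach a change of 0.5 on the log2 scale. Tlr5 had 0 to 40 counts in a library. Summed over 3 libraries, MΦs had 49 counts in wt and 20 in BMI1-KO, and MM-MΦs 51 and 50, and the interval in wt, −2.03 to 2.08, was too wide for a comparison. In BMI1-KO its libraries did not overlap (2 to 9 counts in MΦs and 12 to 19 in MM-MΦs), at 1.33 on the log2 scale (−0.87 to 3.52).

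Among the endosomal receptors, Tlr3 had the largest difference with co-culture apart from Tlr5. In BMI1-KO it was at 14.5, 22.0 and 20.9 CPM in MΦs and 29.7, 27.0 and 28.4 CPM in MM-MΦs, and the groups did not overlap. In wt it was at 19.8, 22.3 and 24.2 CPM in MΦs and 26.8, 20.0 and 31.1 CPM in MM-MΦs, and the groups overlapped. The log2 fold change was 0.57 (0.12 to 1.01, unadjusted p = 0.0168, adjusted p = 0.9999, edgeR) in BMI1-KO and 0.23 (−0.21 to 0.67) in wt. The difference between the changes in the genotypes was 0.33 (−0.29 to 0.96) and did not pass the interaction test (adjusted p = 1, edgeR). The co-culture value in BMI1-KO ranged from 0.40 (without BMI1-KO MΦs replicate 1, the lowest library) to 0.69 with 1 library left out. Without all 4 libraries numbered 1, which was tried only once the data had been seen, that value was 0.37.

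Tlr8 was the other gene for which all 6 matched pairs moved up, by 0.06 to 0.47 on the log2 scale. It was at 307, 339 and 304 CPM in wt MΦs and 425, 354 and 348 CPM in wt MM-MΦs, which did not overlap. In BMI1-KO it was at 251, 308 and 289 CPM in MΦs and 320, 330 and 308 CPM in MM-MΦs, which met at the edge (308.1 and 307.9 CPM). The fold changes were 0.25 (−0.02 to 0.52) and 0.18 (−0.09 to 0.45), and with the block 0.24 (0.06 to 0.43, adjusted p = 0.403) and 0.18 (adjusted p = 0.484).

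Over the 10 genes, 1 had wt libraries that did not overlap with co-culture, higher in MM-MΦs (Tlr8, 3.04% of all genes were higher in this way), and 2 in BMI1-KO (Tlr3 and Tlr5, 3.71%). None was lower without overlap, against 2.62% and 3.37% of all genes. All 6 pairs moved up in 2 of 10 genes, against 695 of 14197 genes (4.90%), and all 6 moved down in none, against 3.16% of genes.

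Tlr7 was at 297, 208 and 202 CPM in wt MΦs and at 404, 200 and 250 CPM in wt MM-MΦs. The BMI1-KO libraries held 360, 251 and 219 CPM (MΦs) and 411, 299 and 259 CPM (MM-MΦs). It moved up in 5 of 6 pairs, with fold changes of 0.27 (−0.36 to 0.90) in wt and 0.22 (−0.41 to 0.85) in BMI1-KO. Tlr9 was at 36.2, 22.6 and 18.3 CPM in wt MΦs and at 49.4, 18.9 and 13.8 CPM in wt MM-MΦs. In BMI1-KO it was at 37.7, 25.4 and 24.2 CPM in MΦs and at 55.7, 38.0 and 29.4 CPM in MM-MΦs. It moved up in all 3 BMI1-KO pairs and in 1 of 3 wt pairs, and its fold changes were 0.50 (−0.48 to 1.47) in BMI1-KO and 0.09 (−0.88 to 1.07) in wt. With the block the BMI1-KO value was 0.48 (0.17 to 0.78, adjusted p = 0.123), the wt value −0.04 and the difference between them 0.52 (0.07 to 0.96, adjusted p = 0.9993).

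Tlr13, the most abundant member, had the narrowest spread on the log2 scale. It was at 987, 1002 and 861 CPM in wt MΦs and 1091, 990 and 864 CPM in wt MM-MΦs. In BMI1-KO it was at 956, 1310 and 1170 CPM in MΦs and 995, 1100 and 1030 CPM in MM-MΦs. With co-culture it was the one member below 0, at −0.14 (−0.48 to 0.20) in BMI1-KO, while that in wt was 0.05 (−0.29 to 0.39).

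**Figure D3:**
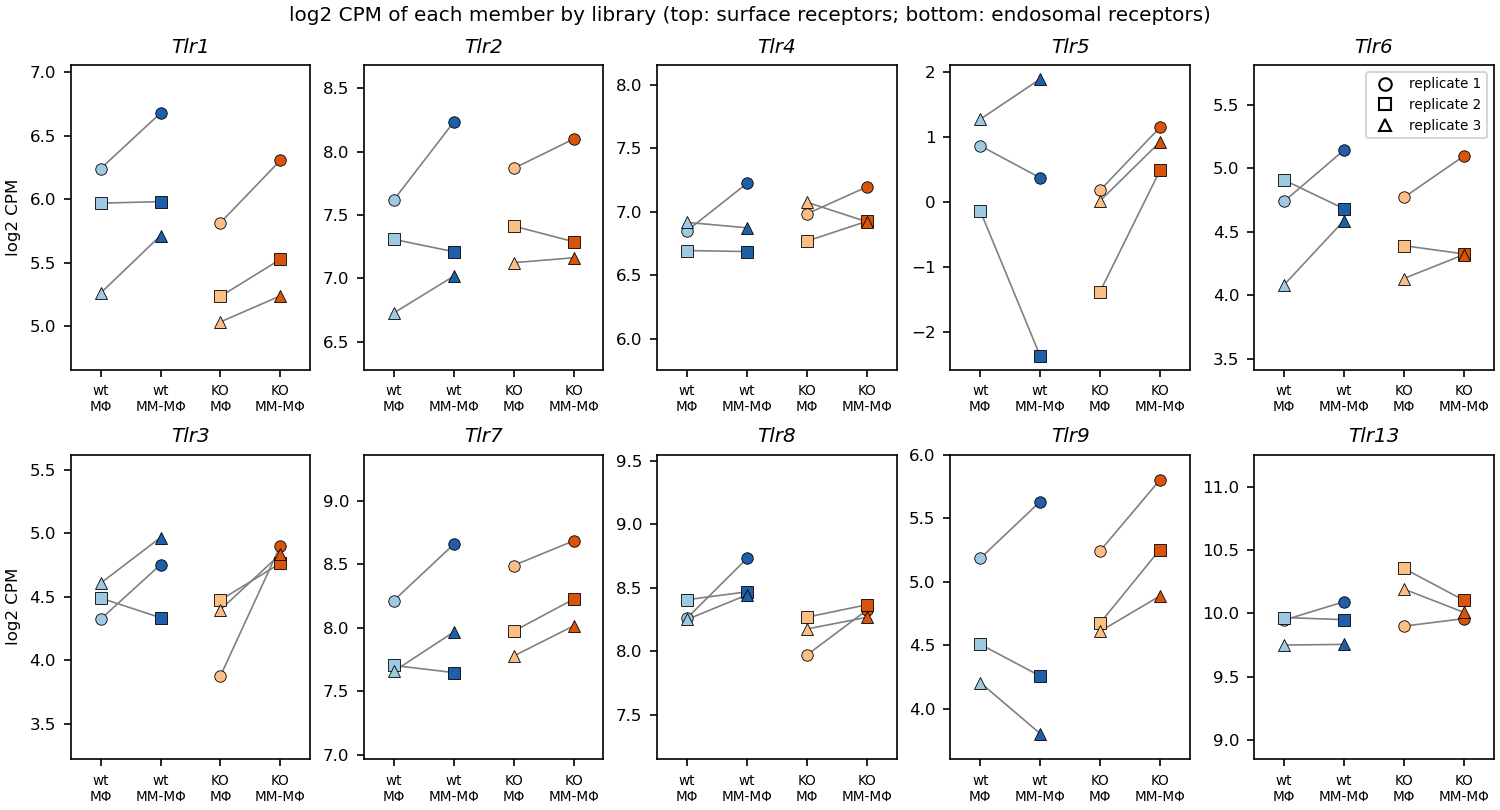
log2 CPM of each Toll-like receptor gene in every library, with lines joining MΦs and MM-MΦs of the same number and genotype. The lines of Tlr1 and Tlr8 rise in 6 of 6 pairs, by at most 0.49, and the circles (replicate 1) are the highest in all 4 groups for Tlr1, Tlr2, Tlr7 and Tlr9; each panel has its own axis, and that of Tlr5 covers a wider range.

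Loss of Bmi1 was compared next, in MM-MΦs and in MΦs, with no pairing between genotypes. In these comparisons 0 of 10 receptor genes passed, where 0.0634% and 0.0493% of all genes did, and the wt and BMI1-KO libraries are those already used for co-culture. DESeq2 also called 0 of 10 in each. At an unadjusted p below 0.05 (edgeR) there was no member in either, against 5.02% and 5.77% of all genes. In MM-MΦs 6 of 10 genes lay above 0, with a median log2 fold change of 0.07, and in MΦs 5 of 10, with a median of −0.02, against medians of −0.01 over all genes in both. With the replicate number as a block 0 of 10 passed as well. At an unadjusted p below 0.05 that block gave 3 members in MM-MΦs (Tlr1, Tlr8 and Tlr9), against 1667 of 14197 genes. In MΦs it gave 2 (Tlr1 and Tlr13), against 1894 of 14197 genes.

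Tlr1 had the lowest values relative to wt among the well-measured genes, with fold changes of −0.42 (−1.20 to 0.35) in MM-MΦs and −0.48 (−1.26 to 0.30) in MΦs. The groups overlapped in both. Tlr9 had the highest value in MM-MΦs, 0.58 (−0.39 to 1.56), against 0.18 (−0.79 to 1.16) in MΦs. Tlr8 was lower in all 3 BMI1-KO MM-MΦ libraries (308 to 330 CPM) than in the wt ones (348 to 425 CPM), with a fold change of −0.23 (−0.51 to 0.04, unadjusted p = 0.0831, edgeR), and 4.46% of all genes were lower without overlap in this comparison (4.40% were higher). In MΦs the libraries of Tlr8 overlapped, at −0.16 (−0.44 to 0.11), and no member was free of overlap there (5.17% of all genes were higher and 4.83% lower without overlap).

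Tlr13 stood at 0.27 (−0.07 to 0.61) in MΦs and 0.09 (−0.26 to 0.43) in MM-MΦs. Tlr7 was at 0.23 (−0.40 to 0.86) and 0.18 (−0.45 to 0.81), Tlr2 at 0.24 (−0.56 to 1.04) and −0.01 (−0.81 to 0.79), and Tlr4 at 0.12 (−0.21 to 0.46) and 0.07 (−0.26 to 0.41). Tlr3 changed sign between the cultures, at −0.21 (−0.65 to 0.24) in MΦs and 0.13 (−0.31 to 0.57) in MM-MΦs, and Tlr6 was at −0.16 and −0.20. For Tlr5, −1.23 (−3.42 to 0.97) in MΦs rested on 20 and 49 counts. None of the 10 genes passed the interaction test, which asks whether the co-culture difference differs between genotypes and in which 0 of 14197 genes passed (0 by DESeq2, and 0.909% at an unadjusted p below 0.05, none of them a member). With the replicate block 1 gene passed (0.00704%), which was not a member, and Tlr9 was the one member at an unadjusted p below 0.05 (3.32% of all genes).

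The replicate number, rather than co-culture or genotype, took up most of the spread of 7 of the 10 genes. Its share of the sum of squares of log2 CPM was 84.1% for Tlr2, 71.6% for Tlr7, 64.3% for Tlr1, 63.1% for Tlr9, 62.9% for Tlr6, 53.2% for Tlr4 and 51.8% for Tlr5, against a median of 35.2% over all genes. Tlr3, Tlr8 and Tlr13 were different, with 12%, 4.7% and 18.6%. For Tlr3 the largest share went with co-culture (45.1%), for Tlr8 with co-culture (36%) and genotype (31.7%), and for Tlr13 with genotype (28.8%) and the genotype by number term (33.8%). Over all genes the medians were 3% for co-culture and 6.5% for genotype. The replicate number has more levels than genotype or co-culture, so its share tends to be larger even where nothing differs. These shares describe 12 libraries and are not tests.

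**Figure D4:**
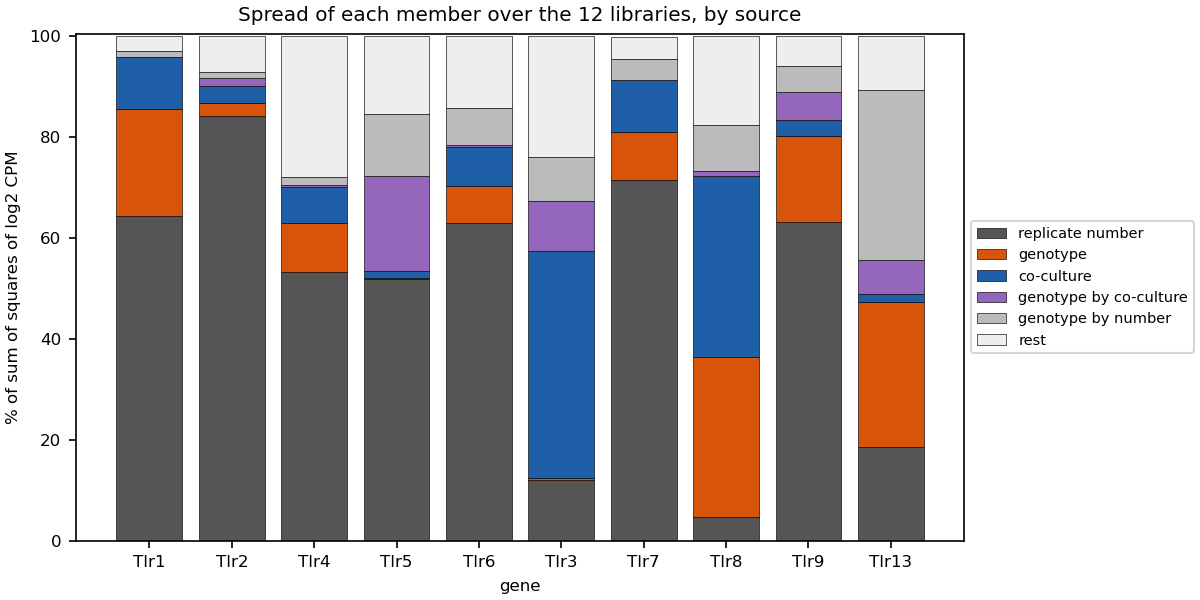
Share of the sum of squares of log2 CPM over the 12 libraries (y axis, %) that goes with the replicate number, genotype, co-culture and their combinations, for each receptor gene. The number takes 84.1% in Tlr2 and 4.7% in Tlr8.

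The library numbered 1 was the highest of its group in 4 of 4 groups for Tlr1, Tlr2, Tlr7 and Tlr9, which held for 8.56% of all genes. Mean log2 CPM was higher in the 4 libraries numbered 1 than in the 4 numbered 3 by 0.95 for Tlr1 and Tlr2, 0.66 for Tlr6 and Tlr7, and 1.09 for Tlr9. The excess was 0.04 for Tlr8, 0.05 for Tlr13 and 0.12 for Tlr4, and the difference had the other sign for Tlr3 (−0.24) and Tlr5 (−0.38, with few counts). The macrophage markers Csf1r, Mertk and Lyz2 were also highest in the library numbered 1 of all 4 groups. Adgre1 and Itgam were not, and in both BMI1-KO groups they were lowest in that library. Csf1r, the M-CSF receptor, was at 3499 to 3990 CPM in the libraries numbered 1 and 2411 to 2697 CPM in those numbered 3, and Mertk, a receptor for dying cells, at 521 to 555 and 238 to 294 CPM. The proliferation gene Mki67 was lower in the libraries numbered 1, at 87.0 to 249 CPM against 303 to 1156 CPM in those numbered 3. The part of these differences in the levels of the receptors was not tested, and the sources used here do not say what the number stands for across genotypes.

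Across the 12 libraries, which share the replicate numbers, log2 CPM of Tlr1 and Tlr6 had a Pearson correlation of 0.93, Tlr2 and Tlr7 of 0.89, Tlr7 and Tlr9 of 0.87, and Tlr2 and Tlr9 of 0.86. Tlr7 and Tlr8, neighbours on the X chromosome, had 0.09. The genes most like each member over these libraries were Slc29a3 and Gas7 for Tlr1 (both 0.97), Id2 and Tagap for Tlr2 (both 0.97), Gm4430 and Rassf2 for Tlr4 (0.89 and 0.88), and Gab1 and Tet2 for Tlr6 (both 0.94). For the endosomal receptors they were Ube2j1 and Aif1 for Tlr3 (both 0.88), Lcp2 and Tank for Tlr7 (both 0.93), Rab7 and Creb5 for Tlr8 (0.94 and 0.90), Srgn and Ifnar2 for Tlr9 (0.95 and 0.94), and Mdm2 for Tlr13 (0.92). Tlr5, with its few counts, was nearest to Arc and Bco2 (0.87 and 0.86). These are the highest values among 14197 genes and describes these 12 libraries only.

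The other genes of the pathway were read in lists by role. Of the co-receptors and accessory proteins, 0 of 7 tested passed in any comparison, with median fold changes of 0.09 in wt and 0.14 in BMI1-KO for co-culture (by DESeq2 0 as well, and 1 at an unadjusted p below 0.05, Ly86 in BMI1-KO). Cd14, which hands lipopolysaccharide on to Tlr4, was at 153 to 353 CPM in wt MΦs and 213 to 441 CPM in wt MM-MΦs, with fold changes of 0.28 (−0.53 to 1.09) in wt and 0.33 (−0.48 to 1.14) in BMI1-KO. With the replicate block the BMI1-KO value was 0.38 (adjusted p = 0.0474). Ly96, which binds lipopolysaccharide within the Tlr4 complex, stayed within 14.1 to 23.8 CPM over the 12 libraries, and Cd180, a relative of the receptors that dampens Tlr4, within 304 to 436 CPM. Ly86, the partner of Cd180, was at 65.2 to 75.2 CPM in BMI1-KO MΦs and 86.3 to 116 CPM in BMI1-KO MM-MΦs, which did not overlap (0.57, adjusted p = 0.9999, and 0.56 with the block, adjusted p = 0.00654). In wt it was 0.41 (−0.12 to 0.94). Cd36, a scavenger receptor that works with Tlr2 and was named here after its value was seen, was at −0.48 in BMI1-KO and passed with the block only (−0.49, adjusted p = 0.000600). Lbp, the lipopolysaccharide-binding protein of plasma, had a fold change of 1.21 (−0.35 to 2.77) with loss of Bmi1 in MM-MΦs.

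Of the chaperones, trafficking proteins and endosomal proteases, 0 of 16 tested passed in any comparison (0 by DESeq2, and 1 gene at an unadjusted p below 0.05 each for co-culture in wt, genotype in MM-MΦs and the interaction). The medians for co-culture were 0.13 in wt and 0.07 in BMI1-KO. With loss of Bmi1 in MΦs 14 of 16 lay below 0 (median −0.21), against 7334 of 14197 genes (median −0.01). In MM-MΦs 9 of 16 lay below 0 (median −0.03). Unc93b1, which carries the nucleic acid receptors to endosomes, was at 327 to 751 CPM over the 12 libraries and, like 4 of the receptors, highest in the library numbered 1 of each group, with co-culture values of 0.13 (−0.62 to 0.88) and 0.20 (−0.55 to 0.94). Pld4, a nuclease of the endosome, was at −1.35 (−2.50 to −0.21, adjusted p = 1, edgeR) with co-culture in wt, where wt MΦ replicate 2 alone stood at 8.68 CPM against 2.13 and 3.35 CPM. The protease Ctsk was at −1.36 (−2.56 to −0.16, adjusted p = 0.902, edgeR) with loss of Bmi1 in MM-MΦs.

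The adaptors had 0 of 5 tested that passed with edgeR, with medians of 0.18 and 0.29 for co-culture in wt and BMI1-KO and 1 at an unadjusted p below 0.05 with loss of Bmi1, Ticam2. Myd88, used by all members but Tlr3, was at 45.1 to 63.5 CPM in MΦs and 54.1 to 92.5 CPM in MM-MΦs, with co-culture values of 0.29 (−0.20 to 0.79) in wt and 0.32 (−0.18 to 0.81) in BMI1-KO. Tirap, the bridge from Tlr2 and Tlr4 to Myd88, was at 0.18 and 0.29. Ticam2, the bridge from Tlr4 to Ticam1, was at 23.7 to 25.8 CPM in wt MΦs and 12.9 to 16.8 CPM in BMI1-KO MΦs, and at 22.2 to 33.2 and 16.4 to 20.8 CPM in MM-MΦs, and the genotypes overlapped in neither. Its fold changes with loss of Bmi1 were −0.78 (−1.19 to −0.38, adjusted p = 0.335, edgeR) in MΦs and −0.53 (−0.93 to −0.13, adjusted p = 0.724, edgeR) in MM-MΦs. DESeq2 called it lower in MΦs (adjusted p = 0.0279) and not in MM-MΦs (adjusted p = 0.422).

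Of the kinases and ubiquitin ligases, 0 of 19 passed in any comparison (0 by DESeq2, and at an unadjusted p below 0.05 Ikbkg for co-culture in BMI1-KO and Ikbkg and Traf3 for genotype in MΦs), with medians of 0.08 and 0.00 for co-culture. The values with the smallest p were those of Ikbkg, the regulatory part of the kinase that frees NF-kB (0.52, 0.16 to 0.88, adjusted p = 0.607, edgeR), and of the ubiquitin ligase Traf3 (0.44, 0.09 to 0.78, adjusted p = 0.713, edgeR), both with loss of Bmi1 in MΦs. With co-culture in BMI1-KO, Ikbkg was at −0.44 (adjusted p = 0.9999) and −0.45 with the block (adjusted p = 0.00779). Of the transcription factors, 0 of 12 passed with edgeR, 1 at an unadjusted p below 0.05, and the medians for co-culture were 0.06 and 0.04. Irf7, an interferon regulatory factor that acts below Tlr7 and Tlr9 and is itself induced by interferon, was at 24.6 to 35.5 CPM in wt MΦs and 89.6 to 137 CPM in wt MM-MΦs, and at 25.4 to 74.1 and 133 to 223 CPM in BMI1-KO. Its fold changes of 1.92 (1.12 to 2.71) and 2.03 (1.24 to 2.82) missed the threshold with edgeR (adjusted p = 0.115 and 0.0642) and passed with the block (adjusted p = 1.45e-06 and 1.91e-07) and with DESeq2 (adjusted p = 0.000125 and 1.93e-05). Cebpb was at 0.46 (−0.21 to 1.13) with co-culture in BMI1-KO, where Fos passed with the block only (0.45, adjusted p = 0.00395).

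Of the inhibitors, 1 of 17 tested passed for co-culture in BMI1-KO and none in wt with edgeR, against 0.190% and 0.0916% of all genes. DESeq2 called 1 in each. The medians for co-culture were 0.20 in wt and 0.11 in BMI1-KO. Trim30a, an interferon-induced ubiquitin ligase that restrains NF-kB below these receptors, rose with co-culture in BMI1-KO, from 83.1 to 105 CPM in MΦs to 161 to 222 CPM in MM-MΦs (0.95, 0.60 to 1.29, adjusted p = 0.0465, edgeR). This call was lost when only the 6 libraries compared were fitted, or only those numbered 2 or 3, where no gene passed. In wt it was at 0.90 (0.55 to 1.24, adjusted p = 0.0791, edgeR), which passed with the block (adjusted p = 8.50e-06), and the difference between genotypes was 0.05 (−0.43 to 0.53). Irak3, a kinase relative that holds Myd88 signalling in check, was at −0.39 (−0.80 to 0.02) with loss of Bmi1 in MΦs. With the block Socs3, which shuts down cytokine signalling, also passed (0.97 in wt, adjusted p = 0.00481, and 0.90 in BMI1-KO, adjusted p = 0.00651), as did Atf3 in BMI1-KO (0.36, adjusted p = 0.0219).

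Of the induced inflammatory genes, 0 of 16 tested passed (0 by DESeq2, and 1 at an unadjusted p below 0.05, Ccl2 in BMI1-KO). Their median fold changes with co-culture were 0.40 in wt and 0.44 in BMI1-KO, with 14 and 13 of 16 above 0. Under the block 3 chemokine genes passed in wt (Ccl2, Ccl4 and Cxcl2) and 4 in BMI1-KO (Ccl2, Ccl3, Ccl4 and Cxcl10). Ccl2, which draws in monocytes, was at 1.12 (adjusted p = 0.0245) and 1.39 (adjusted p = 0.00123). Lcn2 had 2.03 (−0.07 to 4.13) with loss of Bmi1 in MM-MΦs, where BMI1-KO replicate 2 alone stood at 15.7 CPM against 1.43 and 1.49 CPM. The sum of the 10 neutrophil markers, though not each of them, was also highest in that library, at 203 CPM. That RNA's part in the value was not tested. Nos2, Il12a and Ifnb1, the gene of interferon beta, had no count in any library, and Il6, Il12b and Ccl5 at most 8, 6 and 9 counts.

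The interferon-induced genes were the exception. With co-culture, 21 of 21 lay above 0 in both genotypes, and the medians were 1.81 in wt and 1.98 in BMI1-KO on the log2 scale. With edgeR 11 of 21 passed in wt and 15 of 21 in BMI1-KO, against 0.0916% and 0.190% of all genes. DESeq2 called 18 and 19. With the block 20 of 21 passed in each, against 1.10% and 2.17% of all genes. Ifit1, which binds viral RNA, went from 4.18 to 6.23 CPM in wt MΦs to 23.6 to 28.2 CPM in wt MM-MΦs (2.27, 1.73 to 2.82, adjusted p = 0.0146, edgeR), and from 6.26 to 10.4 CPM to 41.7 to 67.3 CPM in BMI1-KO (2.74, 2.20 to 3.28, adjusted p = 0.00145, edgeR). Ifit2 rose by 2.45 and 3.16, Ifit3 by 2.89 and 3.41, Mx1 by 2.28 and 2.97, and Oasl1 by 1.88 and 2.11. Ddx58, the gene of the cytosolic RNA sensor RIG-I, rose by 0.90 and 1.15. No interferon-induced gene passed the interaction test, and Tlr3, often counted as interferon-induced, had the values given above. With loss of Bmi1 0 of 21 passed in MM-MΦs or MΦs with edgeR (by DESeq2 Ifit1 in MM-MΦs, adjusted p = 0.00246, and Ifi44 in MΦs, adjusted p = 0.00668). At an unadjusted p below 0.05 (edgeR) there were 10 and 6, against 5.02% and 5.77% of all genes. In MM-MΦs 21 of 21 lay above 0 (median 0.44), against 47.5% of all genes. In MΦs it was 20 of 21 (median 0.30), against 48.3%. With any 1 library left out, 0 to 3 genes of any kind passed for co-culture in wt (13 with all libraries) and 4 to 23 in BMI1-KO (27 with all). Without the 4 libraries numbered 1 there were 0 in both, and with only the 6 libraries compared 6 in wt and 0 in BMI1-KO.

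**Figure D5:**
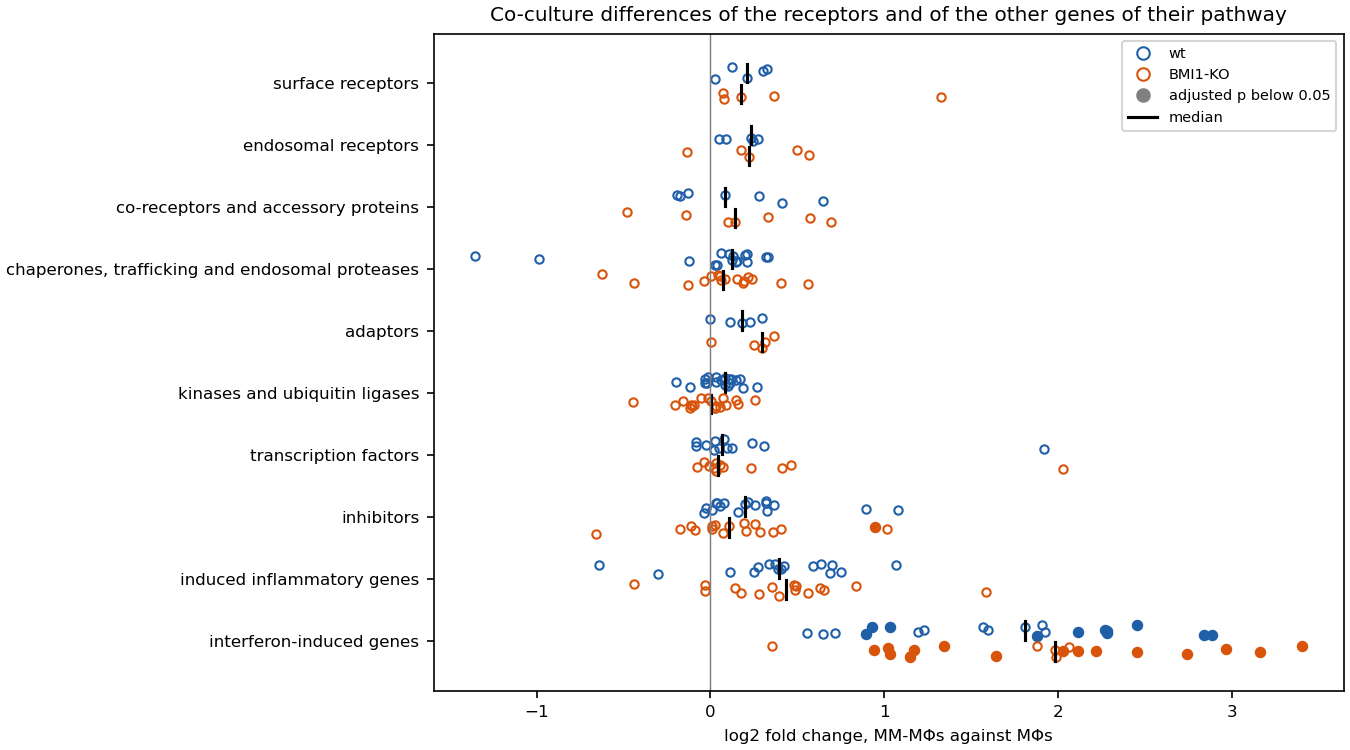
log2 fold change of MM-MΦs against MΦs (x axis) for each tested gene of the receptor and pathway lists, in wt (blue) and BMI1-KO (orange); filled points passed at an adjusted p below 0.05 and bars are medians. Filled points are found among the interferon-induced genes, 11 in wt and 15 in BMI1-KO, and once among the inhibitors (Trim30a in BMI1-KO).

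Some immunoglobulin genes of B and plasma cells were higher in MM-MΦs, although few passed the edgeR test without the block. The 13 B and plasma cell markers summed in wt to 40.2 to 155 CPM (MΦs) and 157 to 405 CPM (MM-MΦs) and in BMI1-KO to 26.9 to 36.1 CPM (MΦs) and 120 to 253 CPM (MM-MΦs), and 5 of 13 had enough counts to be tested. Of these, 0 of 5 passed for co-culture in wt (2 by DESeq2, and 3 at an unadjusted p below 0.05). In BMI1-KO 1 of 5 passed (3 by DESeq2, and 3 at an unadjusted p below 0.05). With the block 3 of 5 (Igkc, Ighg2b and Pou2af1) passed in each. Sdc1, which made up much of the sum in wt, was at 24.2 to 119 CPM in wt MΦs and 31.8 to 134 CPM in wt MM-MΦs. In BMI1-KO Igkc, an immunoglobulin light chain, was at 0.833 to 2.27 CPM in MΦs and 37.9 to 109 CPM in MM-MΦs (5.60, adjusted p = 0.0466, edgeR). Ms4a1, a surface protein of B cells, had at most 1 count in a library. The labels name 5TGM1 myeloma cells in these cultures, and the part of this RNA in the levels of the receptors was not tested.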

How the data were processed

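RNA-seq counts of 12 libraries in 4 groups of 3 were used, grouped by the labels. The authors deposited a table of raw gene counts and, per library, FPKM values scaled by summed exon length. The submitters' processing notes name bcl2fastq 2.17.1.14, cutadapt 1.9.1, HISAT2 2.0.1, HTSeq 0.6.1 and DESeq2 on GRCm38 (mm10). Annotation release, read length and strand setting were not given in the sources used here, so overlapping and antisense reads could not be told apart. No value column was without a sample.

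The counts were tested in R 4.3.3 with edgeR 4.0.16 (TMM scaling, filterByExpr with a count minimum of 10 and a total of 15, 1 mean per group over all 12 libraries, quasi-likelihood test, Benjamini-Hochberg adjustment over 14197 genes, threshold of 0.05). Intervals are at 95%. Depth ran from 9662279 to 11142768 counts. CPM values are scaled by TMM, and log2 CPM has a prior count of 2. FPKM served only to compare levels between genes. Promoters and their motifs are from RefSeq (GRCm38.p6). The fits were run on simulated data with large changes in genes of high count and no effect of the replicate number. Those settings differ from these data, so the run does not show how well small changes are found here. Alternatives were DESeq2 1.42.0, DESeq2 size factors, no filter, only the libraries compared, each library left out, and the replicate number as a block. Deviations of MΦ and MM-MΦ libraries with the same number correlated at 0.36 to 0.73 in wt and 0.18 to 0.64 in BMI1-KO, so numbers were taken to pair them, within a genotype as the labels' numbers give them. No correlation was computed between libraries of unlike numbers, so these values cannot show whether the numbers mark true pairs. Libraries numbered 1 or 3 also correlated between genotypes, at 0.48 to 0.51. The members, gene lists and comparisons were chosen with earlier results of these data known. All members were named, and from each list the genes that passed in any comparison (up to the 6 with the smallest p, or the 2 with the smallest p where fewer passed), Cd14, Ly96, Cd180, Unc93b1 and Myd88, and the 2 genes most like each member, of which 1 is not reported here. Xist, the Y-linked genes, Mki67 and other marker and pathway genes outside this rule were named after their values were seen.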

Additional observations from a re-analysis of the deposited data

How the results depend on the processing

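In every comparison and under every alternative, 0 of the 10 receptor genes passed the threshold. Over the alternatives the lowest adjusted p of a member was 0.393 for co-culture in wt, 0.0715 for co-culture in BMI1-KO, 0.107 for genotype in MM-MΦs, 0.0909 for genotype in MΦs and 0.999 for the interaction, each with the replicate block. The count over all genes moved more. For co-culture in wt, co-culture in BMI1-KO, genotype in MM-MΦs and genotype in MΦs it was 13, 27, 9 and 7 as reported, 58, 91, 89 and 80 with DESeq2, 22, 42, 21 and 14 with no filter on low counts, 6, 0, 4 and 2 with only the 6 libraries compared, and 156, 308, 181 and 206 with the replicate block. Leaving out 1 library gave 0 to 3, 4 to 23, 3 to 6 and 2 to 4, and the 8 libraries numbered 2 or 3, a setting added once the data had been seen, gave 0, 0, 2 and 2. The interaction had 1 gene with the replicate block. Between genotypes the libraries numbered 1 or 3 correlated at 0.48 to 0.51 and those numbered 2 at −0.03 and 0.03. The block there rests on a shared number only. With it, 0 of 10 members passed, while Ticam2 and the protease gene Ctss passed as lower in MΦs (adjusted p = 0.0209 and 0.0380) and Ctss in MM-MΦs (adjusted p = 0.0192).

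Directions of small fold changes were not stable, although DESeq2, DESeq2 size factors in edgeR and no filter on low counts turned none. With the replicate block, co-culture in wt turned to −0.42 for Tlr5 and −0.037 for Tlr9, and genotype in MM-MΦs to 0.022 for Tlr2. With the 8 libraries numbered 2 or 3, it turned to −0.028 for Tlr4, −0.32 for Tlr9 and −0.0075 for Tlr13 (co-culture in wt), −0.040 for Tlr2 (co-culture in BMI1-KO), 0.11 for Tlr2 and −0.29 for Tlr5 (genotype in MM-MΦs), and 0.028 for Tlr4 and 0.12 for Tlr7 (interaction). The range of the fold change with 1 library left out is given for each gene whose sign it turned. For co-culture in wt it was Tlr1 −0.027 to 0.53, Tlr2 −0.15 to 0.55, Tlr4 −0.041 to 0.24, Tlr5 −1.46 to 0.61, Tlr6 −0.0019 to 0.38, Tlr7 −0.066 to 0.48, Tlr9 −0.65 to 0.42 and Tlr13 −0.036 to 0.12. For co-culture in BMI1-KO it was Tlr1 −0.0092 to 0.63, Tlr2 −0.27 to 0.30, Tlr4 −0.024 to 0.15 and Tlr6 −0.13 to 0.36. For genotype in MM-MΦs it was Tlr2 −0.36 to 0.46, Tlr4 −0.036 to 0.24, Tlr5 −0.50 to 1.56, Tlr3 −0.029 to 0.29 and Tlr7 −0.030 to 0.52. For genotype in MΦs it was Tlr6 −0.37 to 0.0077, Tlr7 −0.0031 to 0.43 and Tlr9 −0.049 to 0.51. For the interaction it was Tlr1 −0.32 to 0.39, Tlr2 −0.60 to 0.23, Tlr4 −0.16 to 0.11, Tlr6 −0.34 to 0.18, Tlr7 −0.26 to 0.29 and Tlr8 −0.15 to 0.029. The causes were not tested. Tlr5 did not pass the filter for genotype in MΦs with only the 6 libraries compared and has no value there. The depth limits Tlr5, Tlr11 and Tlr12.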
